A study of Caenorhabditis elegans with 2 samples.

Results

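The genes described here encode the subunits of the proteasome and CDC-48, a group of 35 of the 19973 protein-coding genes annotated on the 6 chromosomes of C. elegans. They were taken by name, as every gene whose symbol begins with pas-, pbs-, rpt- or rpn-, and cdc-48.1 and cdc-48.2 were added. The group was chosen with earlier results of these data known. The tagged protein MADF-9, which takes its name from the MADF domain, had been mapped on chromatin by immunoprecipitation and sequencing (ChIP-seq) in whole L4 larvae, at 48 hours, synchronised as starved L1 larvae after bleaching. All worms were of strain RW12324 (allele st12324), in which CRISPR had placed TY1, EGFP and 3xFLAG at the endogenous madf-9 gene on chromosome IV, and chromatin was pulled down with an antibody against GFP. There was 1 group with 2 biological replicates and no second condition. No untagged or input library was analysed here, so binding of the tagged protein and pull-down at accessible chromatin cannot be told apart, and whole larvae mix all tissues.

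The proteasome is the protease that breaks down proteins marked with ubiquitin. Its core particle is a barrel of alpha rings, made by the pas genes, which gate the entrance, and beta rings, made by the pbs genes, which hold the proteolytic sites. The regulatory particle caps the barrel: the rpt genes encode the ATPases that unfold the substrate and the rpn genes the other subunits, which bind and remove ubiquitin. CDC-48, called p97 or VCP in mammals, is an AAA ATPase that pulls ubiquitin-marked proteins out of complexes and membranes upstream of the proteasome, and C. elegans has a pair of closely related genes for it, cdc-48.1 and cdc-48.2.

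A promoter was taken as 1000 bp upstream to 200 bp downstream of any annotated transcript start. A gene is called bound where the summit of a peak lies in that window and the peak passed the authors' threshold in the comparison of the replicates, which is an irreproducible discovery rate (IDR) of at most 0.01. The IDR estimates how many of the regions ranked that high would fail to recur, and a low value stands for a repeatable region. Of the 35 genes, 3 were bound, which is 8.57% (95% Wilson interval 2.96 to 22.4, covering counting error only), beside 4.71% of all protein-coding genes. The bound genes were cdc-48.1, rpn-3 and rpn-11. Without the added cdc-48 pair, 2 of the 33 subunit genes were bound. The difference from all genes was not tested. The interval cannot stand in for a test, because the genes are a fixed set chosen with earlier results known.

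The sequences under these summits are shown because they come from the peaks that the 3 calls rest on. That of rpt-6 is shown because it held the strongest region of the group that missed the threshold. All sequences were read from the RefSeq copy of WBcel235, the assembly that ce11 names, 5′ to 3′ on the strand of the named gene. Annotated exons were left out, and capitals mark the summit base with 10 bases on each side. The stretches are chrII:10563478-10563645 (minus strand) for cdc-48.1, chrIII:8447096-8447304 (plus strand) for rpn-3, chrII:4044547-4044690 (minus strand) for rpn-11 and chrIII:12369530-12369789 (plus strand) for rpt-6.
cdc-48.1: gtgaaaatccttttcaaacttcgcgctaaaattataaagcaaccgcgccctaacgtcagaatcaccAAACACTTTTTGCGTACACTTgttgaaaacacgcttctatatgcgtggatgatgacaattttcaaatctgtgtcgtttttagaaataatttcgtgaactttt
rpn-3: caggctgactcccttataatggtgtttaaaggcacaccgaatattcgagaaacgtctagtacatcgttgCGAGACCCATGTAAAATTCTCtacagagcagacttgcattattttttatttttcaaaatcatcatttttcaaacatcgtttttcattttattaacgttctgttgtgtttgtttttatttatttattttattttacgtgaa
rpn-11: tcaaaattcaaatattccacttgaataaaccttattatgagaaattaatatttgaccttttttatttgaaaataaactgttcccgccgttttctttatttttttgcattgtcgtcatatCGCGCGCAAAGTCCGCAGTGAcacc
rpt-6: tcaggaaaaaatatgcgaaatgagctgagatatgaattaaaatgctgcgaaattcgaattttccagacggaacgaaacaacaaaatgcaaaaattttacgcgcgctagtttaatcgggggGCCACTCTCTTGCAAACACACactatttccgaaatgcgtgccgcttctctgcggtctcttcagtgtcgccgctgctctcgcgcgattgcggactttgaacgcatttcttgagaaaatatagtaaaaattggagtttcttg
With exons left out, the stretches hold 209 of the 260 bp of the rpn-3 peak and 144 of the 260 bp of the rpn-11 peak. Those of cdc-48.1 and rpt-6 are whole. The GC content of the stretches was 36.3% for cdc-48.1, 31.1% for rpn-3, 32.6% for rpn-11 and 43.1% for rpt-6.

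The word AGACGCAG, which had stood out at summits of the whole set in an earlier look at these data, was absent from both strands of all 4. Most peaks lack this word near the summit. Within 50 bp of it, the word occurred at 119 of all 1637 peaks, 7.27%, and at 64 of 785 promoter peaks, 8.15%. AGACGCAG occurred in the promoters of 2 of the 35 genes, pas-5 and rpn-9, a share of 5.71% beside 8.63% of all promoters of the same length, counted from the most upstream start. Neither of these genes was bound, and in pas-5 the word lay 53 bp from the summit of a region that missed the threshold. The word CTGAGCTA, from the same source, was found in none of the 35 promoters and in 1.63% of all. The longest words shared by pairs of the 3 bound stretches were TTTTTTATTT between rpn-3 and rpn-11, ATTTGAAAAT between rpn-11 and cdc-48.1 and TTTTCAAAC between rpn-3 and cdc-48.1. They were picked after the sequences had been compared. Their centres lay 36 to 68 bp from the summits, outside the capitals, and TTTTTTATTT occurred in 13.9% of all promoters, ATTTGAAAAT in 8.53% and TTTTCAAAC in 11.1%.

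The peak of cdc-48.1 (WBGene00007352, chromosome II, 10560036 to 10563407, minus strand) was by far the strongest of the group. It spans 10563478 to 10563645 and the summit is at -162 bp from the start, where a negative distance is upstream. Its signal, the peak caller's strength value, for which no scale is stated, was 403 in the list between replicates, rank 10 of 1637 peaks. In the replicates' own lists the region had signals of 188 in replicate 1 and 219 in replicate 2, with summits at -156 and -171 bp. Both replicates passed the threshold on their own, in an IDR run that the authors made within each replicate, and in each the IDR was at the lowest value the lists hold, 1e-05. No start of another protein-coding gene had this summit in its window, and the next gene upstream ends 704 bp away.

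The peak of rpn-3 (WBGene00004460, chromosome III, 8447353 to 8449346, plus strand), which encodes a lid subunit of the regulatory particle, had a signal of 109, and that of cdc-48.1 was 3.69 times as high in the same list. It spans 8447045 to 8447304, with the summit at -178 bp and an IDR of 0.000432. Replicate 1 gave a signal of 62.0 and replicate 2 a signal of 48.8, both past the threshold on their own. The same summit is at -266 bp from hsp-110, a chaperone gene of the HSP110 type on the other strand, and the 2 genes are 443 bp apart, so the peak cannot be assigned to rpn-3 alone. An exon of the noncoding RNA gene C30C11.14 also overlaps the peak, which ranked 547 of 1637.

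The peak of rpn-11 (WBGene00004467, chromosome II, 4043055 to 4044546, minus strand), the lid's deubiquitinating enzyme, had a signal of 98.7 and rank 669. It spans 4044431 to 4044690, with an IDR of 0.000836 and its summit at -15 bp from the more upstream of 2 annotated starts. The upstream neighbour on the same strand ends 224 bp away. Replicate 2 passed on its own with a signal of 51.8. Replicate 1 had a region of signal 44.8 at -50 bp, against -11 bp in replicate 2, with an IDR of 0.0149, just outside the threshold, so rpn-11 was bound in the set of replicate 2 and not in that of replicate 1. The median signal over all 941 bound genes was 97.4, so rpn-3 and rpn-11 stand near the middle of the bound genes while cdc-48.1 held rank 7.

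**Figure D1:**
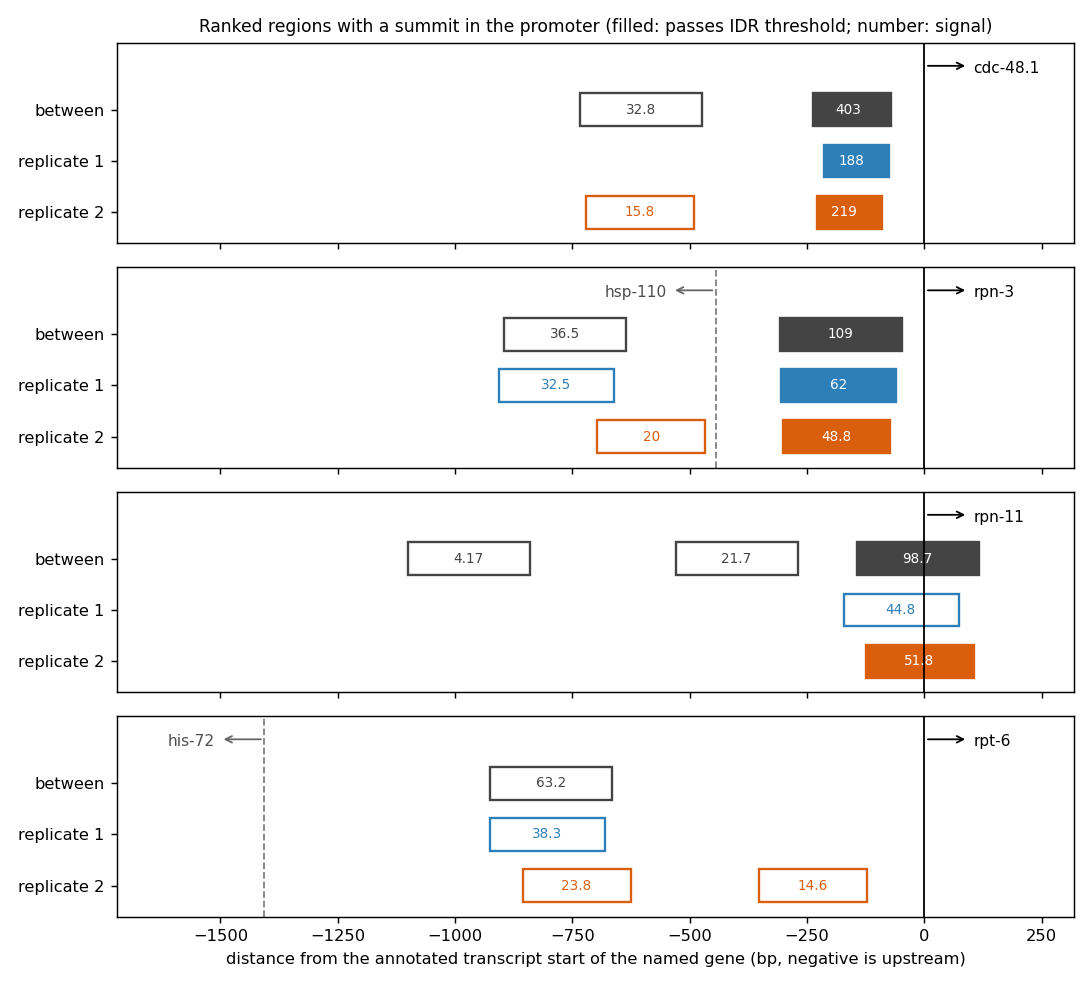
Regions with a summit in the promoters of cdc-48.1, rpn-3, rpn-11 and rpt-6, drawn to scale by distance in bp from the start of each gene (negative is upstream), in the list between replicates and in each replicate. Filled boxes passed the IDR threshold, the number in a box is its signal, and dashed lines mark starts of neighbouring genes on the other strand. The boxes of cdc-48.1 and rpn-3 near the start are filled and overlap in all 3 lists, and the box of rpn-11 in replicate 1 is unfilled.

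In the set of replicate 1 alone 2 of the 35 genes were bound, 5.71% beside 3.19% of all genes, and in that of replicate 2 alone 3 were, 8.57% beside 2.46%. These sets hold the same genes as above apart from rpn-11 in replicate 1.

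The other 32 genes had weaker regions or none. The authors also deposited all ranked regions, 86867 between replicates, most of which do not pass, and 28 of the 35 promoters (80%) held a summit of one, beside 69.2% of all protein-coding genes. The strongest such region of a promoter had a median signal of 29.0 over the 35 genes and 23.0 over all genes, where a gene without a region counts as 0. Ranked among all genes, the 35 had a median percentile of 63.3 in the list between replicates, 66.2 in replicate 1 and 69.2 in replicate 2, where 50 is the median of all genes. None of these differences was tested. Many ranked regions are weak, and 6 of the 28 strongest regions, 21.4% beside 30.2% over all genes with a region, namely those of pas-2, rpn-2, rpn-5, rpn-10, rpn-13 and cdc-48.2, had the lowest score of the list, an IDR of 0.84.

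**Figure D2:**
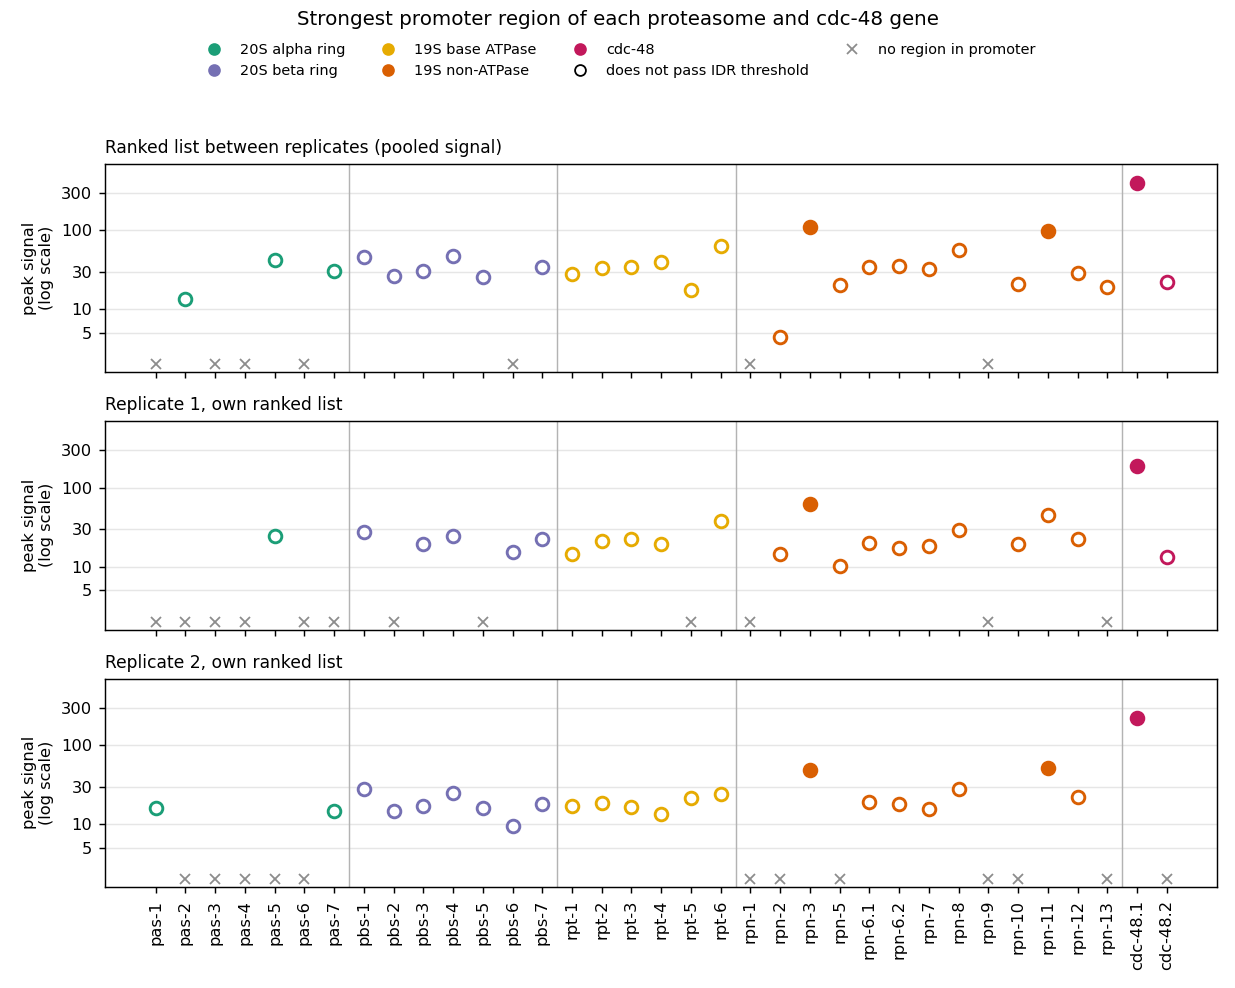
Signal of the strongest promoter region of each of the 35 genes (log axis) in the list between replicates and in each replicate's own list, coloured by the role of the product. Filled circles passed the IDR threshold, open circles did not, and crosses mark promoters without a region. Signals of cdc-48.1, at 403, 188 and 219, are the highest in all 3 panels.

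The genes of the alpha rings had the lowest share of genes with a region among the 5 roles. A region was found at 3 of 7, pas-5 with a signal of 42.2 (summit at -276 bp, IDR 0.391), pas-7 with 30.3 (-785 bp, IDR 0.511) and pas-2 with 13.4 (126 bp downstream, IDR 0.84), and none at pas-1, pas-3, pas-4 and pas-6. In the replicates' own lists pas-5 had a region in replicate 1 alone (signal 24.6), pas-7 (14.6) and pas-1 (16.0) had one in replicate 2 alone, and pas-2 had none. None of the 7 genes thus had a region in both replicates. Each role holds few genes, and over all protein-coding genes 69.2% had a region between replicates and 34.9% had one in both replicates. The median percentile of the alpha ring genes was 15.4, the value shared by all genes without a region, and no difference from the other roles was tested.

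Regions were found at 6 of the 7 beta ring genes, with signals from 25.9 to 47.4. The highest were pbs-4 with 47.4, pbs-1 with 45.6 and pbs-7 with 34.8. The regions of pbs-4 and pbs-1 had their summits inside the gene, 129 bp (IDR 0.0642) and 183 bp (IDR 0.169) downstream of the start. In the replicates pbs-4 had signals of 24.4 and 24.6, and pbs-1 had 27.4 and 27.8, although the strongest region of pbs-1 lay at different places, at -198 bp in replicate 1 and 184 bp downstream in replicate 2. The region of pbs-7 was at -477 bp (IDR 0.68), where replicate 1 had a signal of 22.7. The strongest region of pbs-7 in replicate 2, with 18.2, lay elsewhere, at -60 bp. Signals of 30.9 and 26.3 were found at pbs-3 and pbs-2. The gene for the chymotrypsin-like subunit, pbs-5, had 25.9, and pbs-6 had no region between replicates but weak ones of 15.3 and 9.43 in the replicates. None passed the threshold, and the median percentile was 67.3.

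All 6 ATPase genes had a region, with signals from 17.5 for rpt-5 to 63.2 for rpt-6, a median of 34.0 and a median percentile of 73.4. The region of rpt-6 (chromosome III, 12369530 to 12369789) had an IDR of 0.0188 and is among the nearest to the threshold from outside. Its summit is at -796 bp from rpt-6 and at -610 bp from his-72, a histone H3.3 gene on the other strand that starts 1405 bp away. Replicate 1 gave a signal of 38.3 with an IDR of 0.0156, and replicate 2 gave 23.8 with an IDR of 0.825. The next were rpt-4 with 39.8 (-391 bp, IDR 0.642) and rpt-3 with 34.5 (27 bp downstream, IDR 0.652). The region of rpt-4 lies inside the annotated gene, and distances for rpt-4 are from the more downstream of its 2 starts. Replicate 1 gave 19.2 for rpt-4, at -381 bp, and 22.2 for rpt-3, 27 bp downstream. In replicate 2 the strongest regions lay elsewhere, with 13.6 at 24 bp downstream for rpt-4 and 16.4 at -989 bp for rpt-3, and neither overlapped the region named above. A signal of 33.6 was found at rpt-2 and one of 28.0 at rpt-1. In replicate 2 rpt-5 had 21.4, at percentile 84.2, from a region 30 bp downstream of the start. It had no region in replicate 1. The summit of rpt-4 is at -53 bp from nfyc-1, a gene for a subunit of the NF-Y factor on the other strand.

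Besides rpn-3 and rpn-11, a region was found at 9 of the 13 rpn genes, and none at rpn-1 and rpn-9. The strongest was that of rpn-8, the partner of the RPN-11 enzyme in the lid, with a signal of 55.7 and an IDR of 0.0153, the closest to the threshold from outside. Replicate 1 gave 29.5 and replicate 2 gave 28.2 at nearly the same place, -447 and -459 bp, each far from passing on its own (IDR of 0.436 and 0.391). The summit is nearer to mrps-6, a mitochondrial ribosomal protein gene on the other strand, at -94 bp, than to rpn-8, at -451 bp. The remaining signals were 35.4 for rpn-6.2, 34.3 for rpn-6.1, 32.3 for rpn-7, 29.0 for rpn-12, 21.2 for rpn-10, 20.3 for rpn-5, 19.3 for rpn-13 and 4.48 for rpn-2. Of these, rpn-10 and rpn-13 encode ubiquitin receptors and rpn-2 a scaffold subunit. In replicate 1 rpn-10 had 19.4, at percentile 72.9, from a region elsewhere, 169 bp downstream of the start.

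The other CDC-48 gene, cdc-48.2 (WBGene00008053, chromosome II, 8138496 to 8141230, plus strand), had a signal of 22.2 in its strongest region, beside 403 for cdc-48.1. The summit is at -777 bp from cdc-48.2 and at -801 bp from ctns-1 on the other strand. It had the lowest score of the list, replicate 1 gave 13.3 and replicate 2 had no region. Both replicate values of cdc-48.1 were above every value of cdc-48.2, and the difference was not tested.

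**Figure D3:**
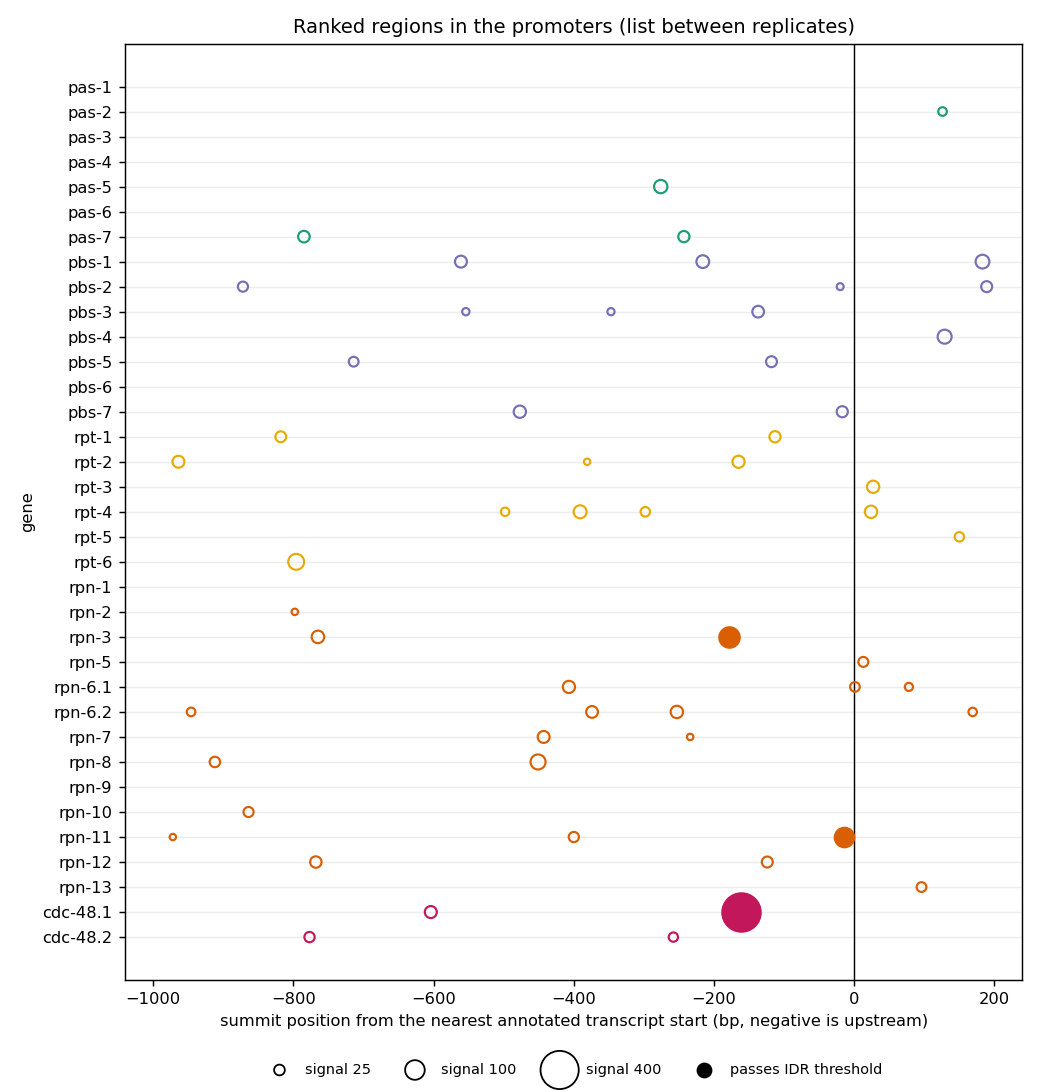
Position of all 56 ranked regions in the 35 promoters, in bp from the nearest transcript start (negative is upstream), with the area of a circle growing with the signal and filled circles passing the threshold. The 3 filled circles lie within 200 bp upstream of a start, while open circles are spread over the window.

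Summits of the strongest regions lay upstream of the start in 20 of 28 genes, 71.4% beside 81.2% over all genes with a region, and within 300 bp upstream in 9, 32.1% beside 28.8%. Their median position was -172 bp, beside -329 bp over all genes. Distances are from the nearest annotated start. Summits counted as upstream can thus lie inside a gene with several starts, as at rpt-4, rpn-6.1 and rpn-6.2. The bound summits lay at -162 bp for cdc-48.1, -178 bp for rpn-3 and -15 bp for rpn-11. Of the 28 regions, 16 also fell in the promoter window of another protein-coding gene, 57.1% beside 22.4% over all genes with a region, in each of the 16 including at least 1 gene on the other strand. The difference was not tested. These include rpn-3 with hsp-110, rpn-8 with mrps-6, rpn-5 with the cohesin gene scc-1 and rpt-2 with aps-1. No region had a tRNA gene within 250 bp. For 8 of the 35 genes, 22.9% beside 20.6% of all protein-coding genes, the nearest gene upstream was on the same strand and at most 500 bp away, overlaps included. Of the bound genes rpn-11 was one, with a gap of 224 bp. By chromosome, 10 of the genes lie on I, 28.6% beside 14.4% of all protein-coding genes. There are 9 on II (25.7% beside 17.3%) and 8 on III (22.9% beside 13.2%). Chromosome IV holds 3 (8.57% beside 16.4%) and V holds 5 (14.3% beside 25%). None is on X, where 13.7% of protein-coding genes lie.

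The replicates were compared through the strongest region of each gene in each list. A region was present in both replicates for 18 of the 35 genes, 51.4% beside 34.9% of all genes, in 1 replicate for 10 and in neither for 7. Of the 18 genes, the summits of the replicates lay within 100 bp of each other in 8, namely pbs-4, rpt-6, rpn-3, rpn-6.1, rpn-7, rpn-8, rpn-11 and cdc-48.1. This was 44.4%, beside 47.2% over all 6977 genes with a region in both. The regions themselves overlapped by at least 1 bp in 10 of the 18, those 8 with pbs-3 and rpt-1, which was 55.6%, beside 58.8% over all genes. An IDR under 0.1 was reached by 6 genes, pbs-4, rpt-6 and rpn-8 besides the bound ones, 17.1% beside 9.11% of all genes.

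**Figure D4:**
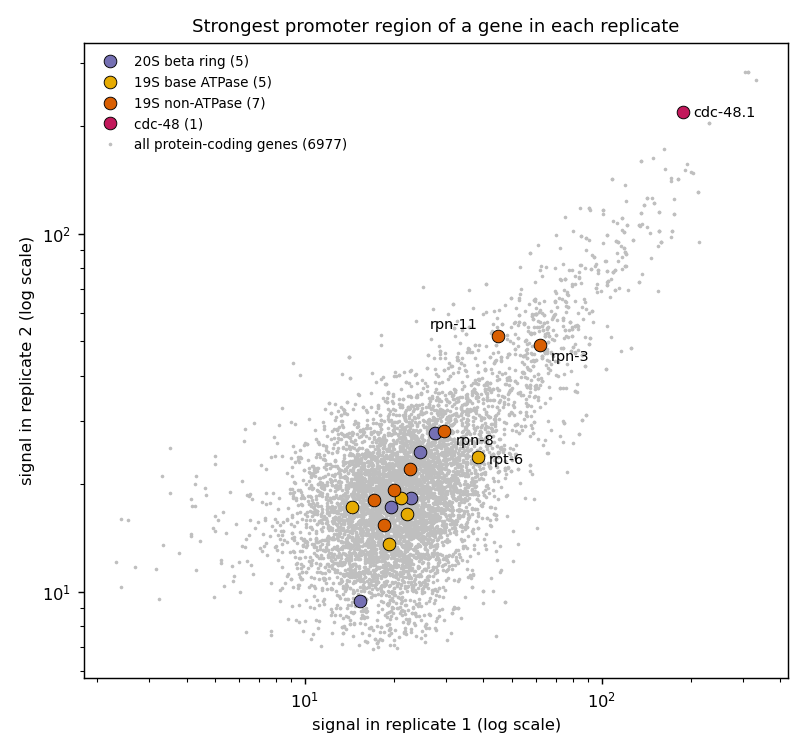
Signal of the strongest promoter region in replicate 1 (x, log axis) and replicate 2 (y, log axis) for the 18 genes of the group with a region in both, in colour by role, and for all 6977 such genes in grey. The signals of cdc-48.1, rpn-3 and rpn-11 lie in the upper tail, and the others lie in the cloud.

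**Figure D5:**
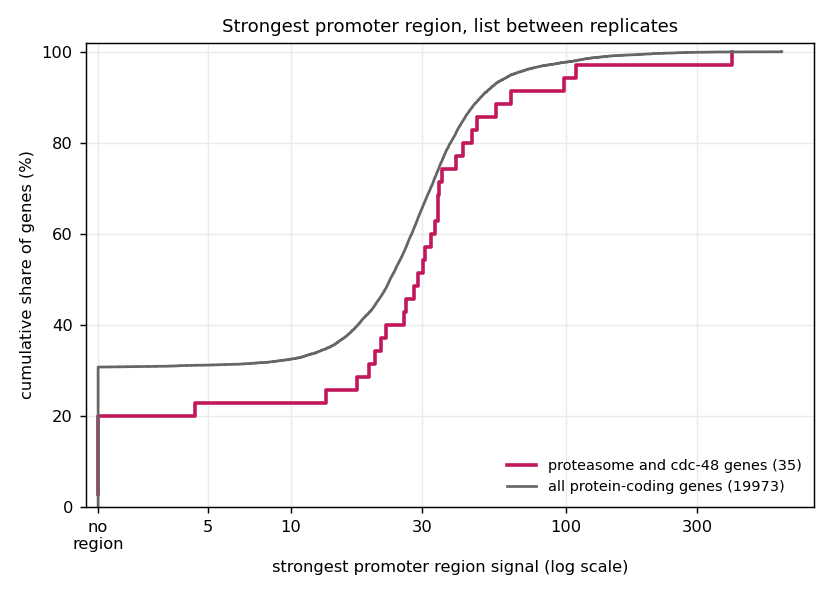
Cumulative share of genes (y, percent) by the signal of their strongest promoter region between replicates (x, log axis) for the 35 genes and for all 19973 protein-coding genes. The curve of the 35 genes starts at 20%, the genes without a region, and lies to the right of the curve of all genes over most of its length.

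Other genes of the ubiquitin pathway were read from 3 lists, chosen with earlier results of these data known, and only bound genes are named. Among 17 genes of CDC-48 cofactors and relatives 2 were bound, ufd-2, a ubiquitin chain elongation enzyme, with a signal of 84.3 and ufd-3, a CDC-48 binding protein, with 101. Their replicates gave 53.5 and 39.8 for ufd-2 and 42.6 and 53.4 for ufd-3. Among 11 genes for ubiquitin and for regulators of the proteasome 2 were bound, the polyubiquitin gene ubq-1 with 98.2 and the ubiquilin gene ubql-1 with 85.4. The replicates gave 39.9 and 59.6 for ubq-1 and 48.8 and 36.1 for ubql-1, whose peak also lies in the promoter window of pdi-3. Among 21 genes with a ubc- symbol, taken by name as E2 conjugating enzymes whether or not their substrate is ubiquitin, 3 were bound. They were ubc-6 with 188, ubc-3 with 184 and ubc-25 with 80.7. The peak of ubc-6 also lies in the promoter window of aka-1. Beside 69.2% of all protein-coding genes, a ranked region was found at 12 of the 17 cofactor genes, whose median percentile was 47.8. It was found at 9 of the 11 ubiquitin and regulator genes, with a median percentile of 86.6, and at 19 of the 21 E2 genes, with 69.1. The share of all protein-coding genes bound is 4.71%, and no list was tested.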

How the data were processed

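The measurements are ChIP-seq peak lists of 2 biological replicates of 1 group. Per the labels, the assembly was ce11 and chromatin was sonicated to 200 to 800 bp. Neither an aligner nor a peak caller is named in the labels or file headers, and no read counts were analysed, so the depth is unknown.

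The authors deposited, for each replicate and for both together, all ranked regions and the set past an IDR threshold. The deposited signal is the caller's own value per region on no stated scale, and nearly all regions have 1 width per list, 260 bp between replicates, 244 bp in replicate 1 and 230 bp in replicate 2. The deposited score is the scaled IDR, at least 830 in the sets. The deposited −log10 of the IDR, which stops at 5, was turned into the IDR. The ranked list between replicates was taken as the 1 that holds all 1637 intervals of the set called between replicates. Of the ranked regions between replicates, 1752 reach a score of 830, and 115 of these are not in the set.

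Genes and starts came from Ensembl release 115 on WBcel235, and sequence from RefSeq. Lists were read with Python 3.11.15 and pandas 2.3.3, intervals computed with scipy 1.17.1. The replicate value of a gene is its strongest region in that replicate's own list. Percentiles give tied genes the mean rank. The reading of windows was tested on simulated summits. No test was run, since there is 1 group and the members and lists were chosen with earlier results of these data known. Every member is named, with signal, position, IDR and both replicates for the bound members and the 3 strongest of each of 5 roles, and only bound genes are named from the other pathway lists. Words were counted in the window of the most upstream start, on both strands. The 2 words tried first were named by earlier results of these data, and the shared words were chosen after seeing the data. Alternatives changed the peak set, window, start, overlap and replicate. The labels number the replicates as biological, with no further word on the cultures.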

Additional observations from a re-analysis of the deposited data

How the results depend on the processing

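Under 8 alternatives the number of bound genes stayed between 2 and 4 of 35, while the share of all genes bound ran from 2.46% to 6.69%, the highest in the wide window. rpn-3 and cdc-48.1 were bound in each, and rpn-11 in all but replicate 1 alone. The gene pas-5 was added where any overlap of a peak with the window counted or where the window ran from 2000 bp upstream to 500 bp downstream. The number with a ranked region lay between 22 and 34, and the background moved with it, from 50.9% to 82.0% of all genes. The median percentile, 63.3, was 55.4 in the wide window, 70.9 in a window of 500 bp upstream to 100 bp downstream and 60.9 with the most upstream start alone, and 66.2 to 69.2 with one replicate left out. It was above 50 in each, and the cause of the shifts was not tested. No paired analysis was possible because there is 1 group. The depth is unknown, so a promoter without a region is not shown to be unbound.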

Other observations

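Of the 32 genes not called bound, 7 had a peak past the threshold within 5000 bp of a start but outside the promoter window, which is 21.9% beside 10.7% of the 19032 protein-coding genes not bound, a difference that was not tested. At pas-5 a peak of signal 101 lies 1116 bp upstream and outside every protein-coding promoter window, while a further one of 80.7, at -3719 bp, is the promoter peak of the E2 gene ubc-25. At pbs-2 a pair of peaks with signals of 160 and 67.5 lie 1319 and 1825 bp downstream of its start, in the promoter window of the alpha tubulin gene tba-2. At rpt-1 a peak of 83.1 lies 2297 bp downstream, in the promoter window of snr-4, a gene of the splicing machinery. The peaks near rpn-5 (134, at unc-85) and rpn-8 (205 and 23.6, at egg-5) likewise fall in the promoters of neighbours. Near pas-6 and rpn-13 the peaks, of 73.5, 68.8 and 97.9, lie in no protein-coding promoter window.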
